A study of Homo sapiens and Mus musculus with 54 samples.

Results

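Dense H3K27ac hubs of mouse hepatocytes were defined by chaining neighbouring H3K27ac regions along a chromosome whenever the gap between them was at most 12500 bp, and keeping the chains that held 10 or more regions. This gave 1131 hubs out of 23661 chains, single regions included, on chromosomes 1 to 19 and X. The hubs held 18743 of 69430 H3K27ac regions, 27% of the list. The positions of the regions chose the hubs, so the number, length and spacing of the regions in a hub describe the choice and were not tested. Binding sites of the aryl hydrocarbon receptor (AhR) in mouse liver came from other libraries that the choice did not use.

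H3K27ac ChIP-seq used hepatocytes from a floxed-AhR background. There were 3 libraries each of B2_minus with Ad_Cre, B2_minus with Ad_Cont, Control with Ad_Cre and Control with Ad_Cont (Cont in the titles), all labelled 4 weeks. AhR ChIP-seq was done in mouse liver, with 3 B2_minus and 3 Control libraries, also labelled 4 weeks, and 3 inputs for each. The treatment labels contrast vitamin B2 deficiency with control. Each experiment had 1 deposited list of positions without a value for any library, so the effects of B2 supply and of Ad_Cre were not measured and no gene or hub was compared between conditions. The list does not say which libraries gave a region, and deletion of AhR by Cre could not be checked in it. No mouse gene table or genome was used here, so hubs carry coordinates (mm10) in place of gene names, no sequence is shown, and the hepatocyte label was not checked against marker genes.

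H3K27ac is an acetyl mark on histone H3 found at active enhancers and active promoters, and dense clusters of such enhancers are known in many cell types for lying near genes that define the cell's identity. AhR is a ligand-activated transcription factor that pairs with ARNT, binds DNA at a short core motif and turns on genes of drug and toxin metabolism in the liver. H3K27ac ChIP-seq recovers acetylated nucleosomes, while AhR ChIP-seq recovers the DNA that the factor sits on.

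The hubs were mostly small. A hub held a median of 14 regions (quartiles 11 and 19, highest 70), and 621 hubs (54.9%) held 10 to 14. At the other end, 257 hubs held 20 or more regions, 78 held 30 or more and 27 held 40 or more. The median span was 38.6 kb, from 7.51 kb to 165 kb, and all hubs together spanned 48.6 Mb. Regions themselves filled only 11.9% of that span, with a median width of 279 bp. Neighbouring regions of a hub were 954 bp apart at the median, and 38.3% of these gaps were under 500 bp while 18.1% were over 5000 bp. Chains just inside and just outside the limit looked alike. The 170 chains of 10 regions had a median length of 27.9 kb and 4 AhR peaks at the median, and the 259 chains of 9 regions had 23.9 kb and 3 AhR peaks.

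The hubs occurred on every chromosome analysed but unevenly. Chromosome 4 had 94 hubs, chromosome 8 had 81 and chromosome 5 had 79, while chromosome X had 2. The share of a chromosome's H3K27ac regions that lay in hubs was highest on chromosome 8 at 35.9%, followed by chromosome 4 at 33.8%, and lowest on chromosome X at 2.95%. Hubs were generally isolated, with a median of 772 kb between neighbours. Yet 77 of 1111 neighbouring pairs were under 25 kb apart, and the closest pair was separated by 12569 bp, just above the largest gap chained.

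**Figure D1:**
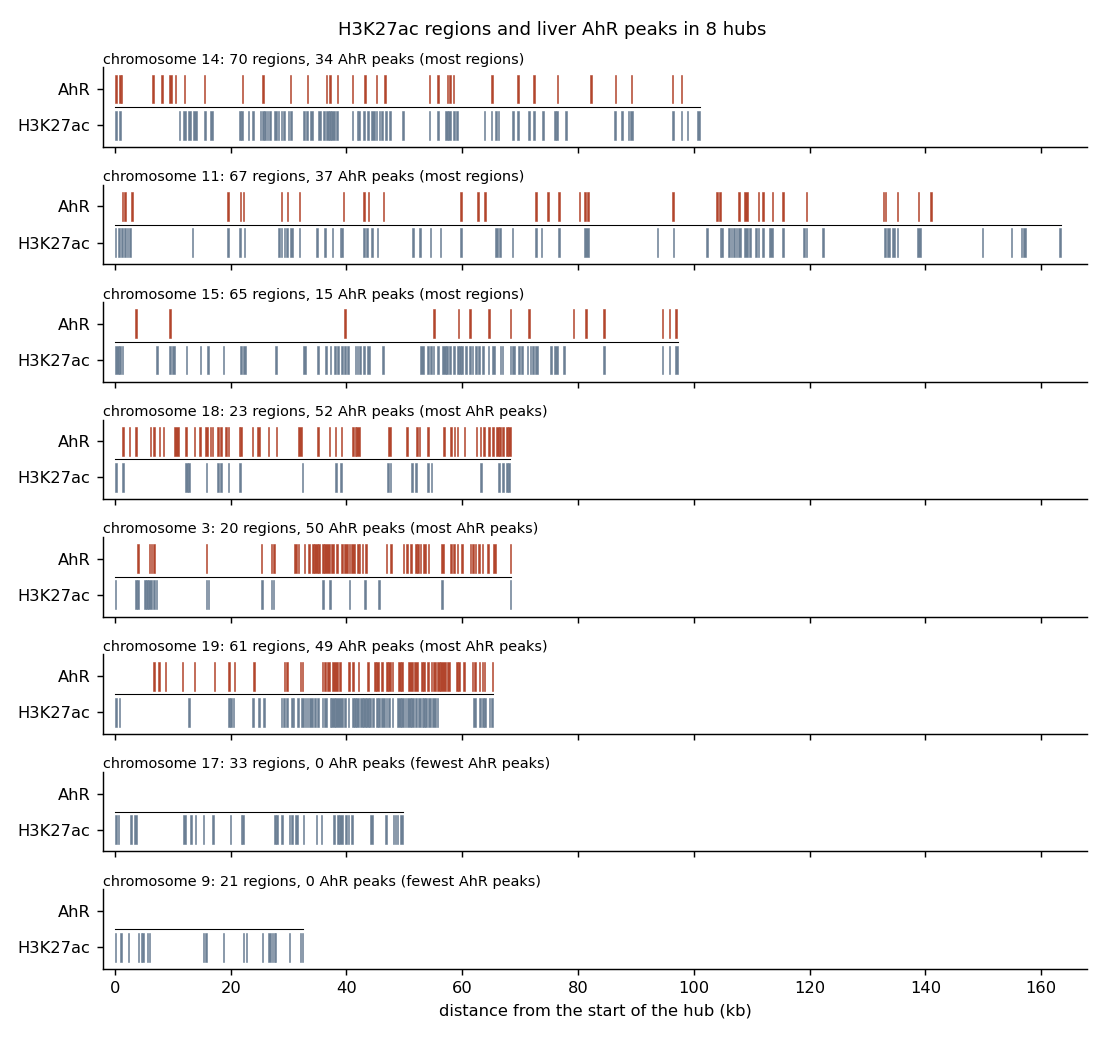
Positions of H3K27ac regions (lower marks) and liver AhR peaks (upper marks) along 8 hubs, in kb from the start of each hub: the 3 with the most regions, the 3 with the most AhR peaks and 2 of those without AhR. In the chromosome 14 hub 28 of 34 AhR marks overlap a region, and most of the others lie in the largest gap, near its start. AhR marks fill more of the spans with few regions in the hubs of chromosomes 18 and 3. They are missing from the hubs of chromosomes 17 and 9.

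The 15 hubs with the most regions held between 49 and 70 regions each. The first of them, chr14:25451103-25552103, packed 70 regions into 101 kb with a median gap of 491 bp, and regions covered 23.3% of its span. It held 34 AhR peaks, 28 on regions and 6 between them. The hub at chr11:117203481-117366845 had 67 regions over 163 kb and 37 AhR peaks. The third, chr15:77760972-77858162, had 65 regions in 97.2 kb but only 15 AhR peaks. Among these 15 hubs packing was tightest at chr19:5786449-5851712. There 61 regions had a median gap of 169 bp and covered 35.6% of the span, which held 49 AhR peaks. Over all hubs the highest coverage was 68.5%. In these 15 hubs AhR peaks per hub ran from 8 to 49, with a median of 34, so a similar number of regions went with very different AhR counts.

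A second pair of large hubs shows this spread. The hub at chr1:88215540-88302910 had 60 regions and 11 AhR peaks, and 5 of its 60 regions (8.33%) overlapped AhR. The hub at chr2:167752810-167895352 also had 60 regions but 36 AhR peaks, and 30 of its regions (50.0%) overlapped AhR. Each peak name closes with a digit. It was taken as how many peaks had been joined to make the entry, and entries with 2 or more are called merged. Of the regions in the chromosome 1 hub, 41.7% were merged, and in the chromosome 2 hub 76.7% were. Across the list 77.3% of regions were merged. Over all 1131 hubs the merged share of regions and the AhR peaks per region were unrelated, with a Spearman rho of -0.0003, given as a description. The hub at chr3:19945827-19999919, with 50 regions in 54.1 kb, had 8 AhR peaks and a merged share of 58.0%. The hub at chr2:27671874-27764661 had a similar merged share, 57.1%, with 42 regions and 37 AhR peaks in its span.

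The other large hubs filled the range between these cases. The longest hub, chr13:34183762-34348818, spread 56 regions over 165 kb with a median gap of 1514 bp and held 14 AhR peaks. At chr6:31066840-31159095, 57 regions had 15 AhR peaks, and all 15 overlapped a region. The hub at chr4:45443702-45527542 had 62 regions in 83.8 kb with 29 AhR peaks, 25 of them on regions. A hub with the same number of regions, chr15:58975215-59090609, was longer at 115 kb and had 40 AhR peaks, 13 of them between regions. On chromosome 5, chr5:66027816-66171843 and chr5:125267963-125412294 had nearly equal lengths of 144.03 and 144.33 kb, with 60 and 59 regions and 36 and 37 AhR peaks. The hub with the fewest regions of the 15, chr1:73986770-74083160, had 49 regions over 96.4 kb and 28 AhR peaks, and 27 of its regions (55.1%) overlapped AhR. Across the 15 hubs the share of regions with AhR thus ran from 8.33% to 62.3%.

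Nearly all hubs held AhR. At least 1 liver AhR peak lay within the span of 1093 of 1131 hubs (96.6%, 95% Wilson interval 95.4 to 97.5), against 37.9% of all chains. A hub is longer than most chains, and a longer span has more room for a peak, so these shares are not set against each other further. The median hub held 6 AhR peaks (quartiles 3 and 10, highest 52) and 0.400 AhR peaks per region. The counts were uneven. The 290 hubs with 10 or more AhR peaks held 4407 of the 8301 AhR peaks in hubs, or 53.1%, and 41 hubs had 20 or more. AhR peaks outnumbered regions in 25 of 1131 hubs, a count that was not made for other chains. Hubs with more regions had more AhR peaks, with a Spearman rho of 0.55 over 1131 hubs, and hub length gave 0.44. These are descriptions of counts that share the same spans. Per region, the AhR count was nearly unrelated to the number of regions (rho 0.11) or to their density (rho -0.07).

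**Figure D2:**
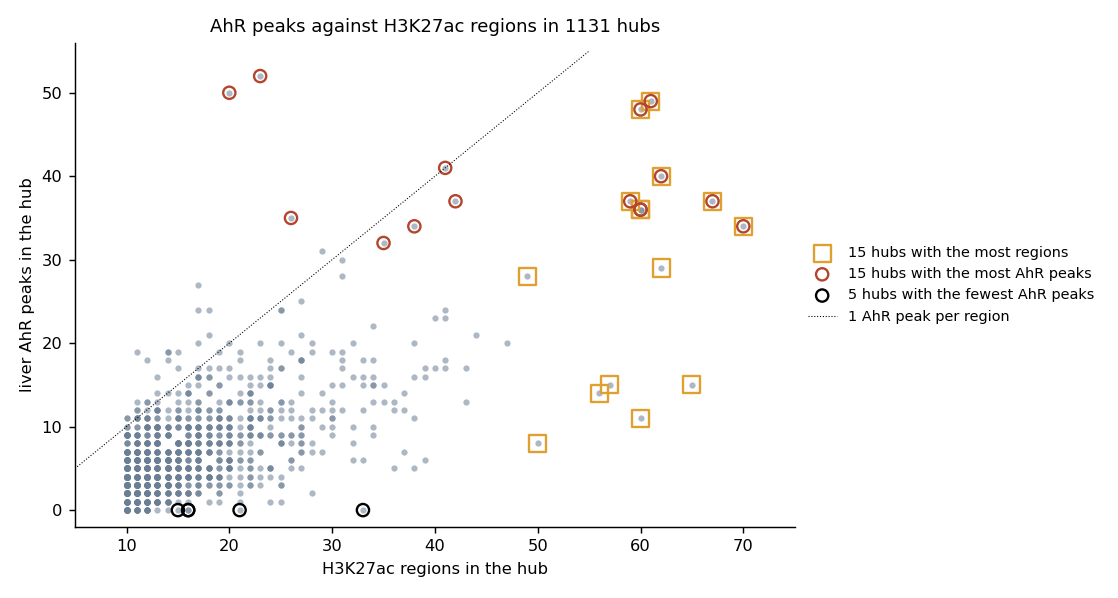
Liver AhR peaks (vertical axis) against H3K27ac regions (horizontal axis), 1 point per hub for 1131 hubs; darker points are several hubs at the same values, squares and circles mark the named hubs and the dotted line is 1 AhR peak per region. The hubs of chromosomes 18 and 3 stand far above the line with 52 and 50 AhR peaks, while a hub with 33 regions lies on the axis at 0.

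The hubs richest in AhR were of different kinds. The 15 with the most AhR peaks held 32 to 52 of them, and 8 of these 15 were also among the 15 with the most regions. The highest count came from a modest hub, chr18:12635664-12703852, which had 52 AhR peaks and 23 regions in 68.2 kb. Of these peaks, 20 overlapped a region and 32 lay between regions, and 19 of its 23 regions (82.6%) overlapped AhR. The hub at chr3:146564353-146632818 was similar, with 50 AhR peaks, 20 regions and 36 of the peaks between regions. AhR centres there were 731 bp apart at the median. In both hubs most AhR peaks thus lay off the listed H3K27ac regions.

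Among the other AhR-rich hubs the split between regions and gaps varied. At chr19:5786449-5851712, described above for its packing, 36 of 49 AhR peaks overlapped a region and 38 of 61 regions (62.3%) overlapped AhR. A small hub at chr4:150837512-150875376 had 35 AhR peaks and 26 regions in 37.9 kb, with 23 peaks on regions and 12 between them. This hub had the highest density of the 15, at 9.24 AhR peaks per 10 kb. In it 20 of 26 regions (76.9%) overlapped AhR, 6 regions did so more than once, and a single region of 1206 bp, chr4:150872792-150873997, overlapped 3 AhR peaks. At chr7:99146178-99233496 AhR peaks and regions were equal in number, at 41 each, and 18 of the AhR peaks lay between regions. At chr8:117660346-117772909 more AhR peaks lay between regions (21) than on them (13). The hubs at chr2:27671874-27764661 and chr5:113085977-113155416 had 37 and 32 AhR peaks, with 17 and 14 of them between regions. Across the 15 hubs AhR peaks per region ran from 0.486 to 2.50, with a median of 0.803, above the median of 0.400 over all hubs, as their choice by AhR count favours.

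The merged share of AhR peaks set a further hub apart. At chr11:16735284-16851326, with 60 regions and 48 AhR peaks, only 5 of the AhR peaks (10.4%) were merged, and 25 of the 48 lay between regions. In the 290 hubs with 10 or more AhR peaks this share had a median of 50.0% (quartiles 41.7% and 60.0%), and a single hub, chr12:25132095-25181651, was lower, at 1 of 11 (9.09%). Of the H3K27ac regions in the chromosome 11 hub, 42 of 60 were merged, so the low share was seen for AhR and less for H3K27ac. Which libraries contributed to a merged peak is not stated.

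No AhR peak lay in 38 hubs (3.36%), and 51 hubs had no AhR peak on a region. The 5 largest hubs without AhR were named by rule. At chr17:70707030-70756827, 33 regions in 49.8 kb had no AhR peak and the nearest lay 77562 bp away. Its regions were merged in 81.8% of cases and had a median width of 298 bp, so in these measures it resembled other hubs. The hub at chr9:2999966-3032484 differed. It held the first H3K27ac region listed on chromosome 9, the median width of its 21 regions was only 206 bp, and the closest AhR peak was 371440 bp away. No filter for mapping artefacts was applied here. Whether this hub is a true cluster of H3K27ac regions was not tested. The remaining 3, at chr18:36377072-36416880, chr3:121584729-121637008 and chr19:9047200-9082806, had 16, 16 and 15 regions, with an AhR peak 28276, 9715 and 12398 bp away.

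AhR overlap was not used to choose the hubs, so their regions could be compared with other H3K27ac regions. In hubs 32.2% of regions overlapped a liver AhR peak by at least 1 bp (6033 of 18743, 95% Wilson interval 31.5 to 32.9). Outside hubs 22.5% did (11416 of 50687, interval 22.2 to 22.9), and in the whole list 25.1% did. The difference was 9.67 percentage points (95% Newcombe interval 8.91 to 10.4). These intervals cover counting error over regions only. Neighbouring regions are not independent, so the intervals are too narrow, and with no value per library there is no replicate error to test against. The depth of the libraries is unknown.

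The AhR share was higher in larger chains up to 15 to 19 regions, with no steady order beyond that. It was 17.3% for single regions, 21.6% in chains of 2 to 4 and 27.3% in chains of 5 to 9 regions. Within hubs it was 30.8% at 10 to 14 regions, 34.3% at 15 to 19, 31.4% at 20 to 29 and 33.8% at 30 or more. The 95% Wilson interval of the class of 30 or more (32.1 to 35.4) overlapped those of both classes below it. Set against single regions alone, hub regions were 14.9 points higher. On either side of the limit the shares were close, at 29.6% in chains of 10 regions and 30.5% in chains of 9. No step in the AhR share was thus seen at the limit of 10 regions.

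**Figure D3:**
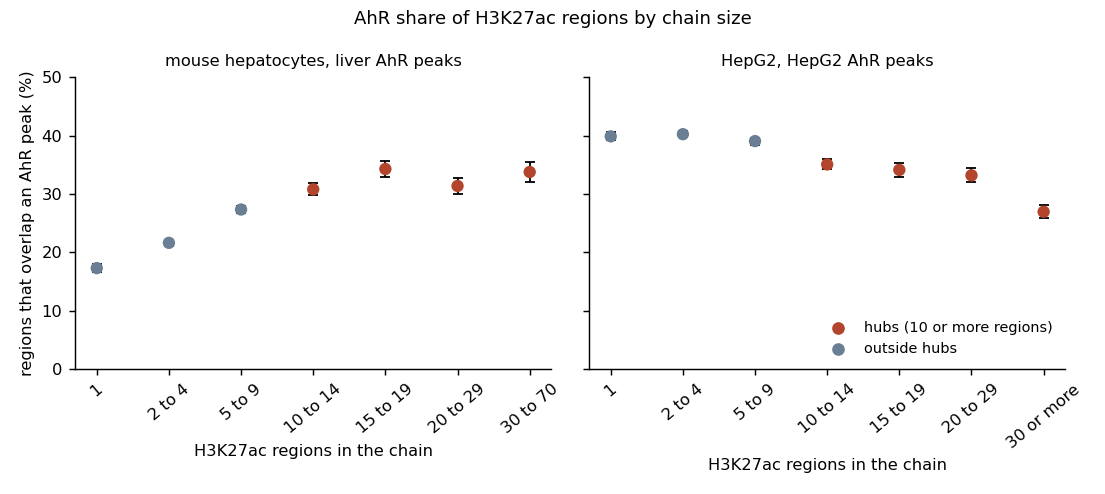
Share of H3K27ac regions that overlap an AhR peak (percent, vertical axis) by the number of regions in their chain (horizontal axis), for mouse hepatocytes with liver AhR on the left and HepG2 with HepG2 AhR on the right; bars are 95% Wilson intervals over regions. The mouse share is 17.3% in single regions, highest at 34.3% in hubs of 15 to 19 regions and 33.8% in the largest hubs, and the HepG2 share goes down to 26.9% in the largest hubs.

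Every chromosome showed the same direction. The share was higher in hub regions than in regions outside hubs on 20 of 20 chromosomes, by 11.03 ± 7.39 points (mean ± SD over chromosomes). Chromosome X, with 15 of 26 hub regions overlapping AhR, had the largest difference at 40.5 points. It rests on 2 hubs, and the 19 autosomes gave 9.48 ± 2.64 points. Among autosomes the difference was largest on chromosome 19, with 39.1% in hub regions and 24.0% outside, and smallest on chromosome 1, with 28.6% in hub regions and 22.9% outside. Leaving out any single chromosome kept the pooled difference between 9.43 and 9.88 points.

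**Figure D4:**
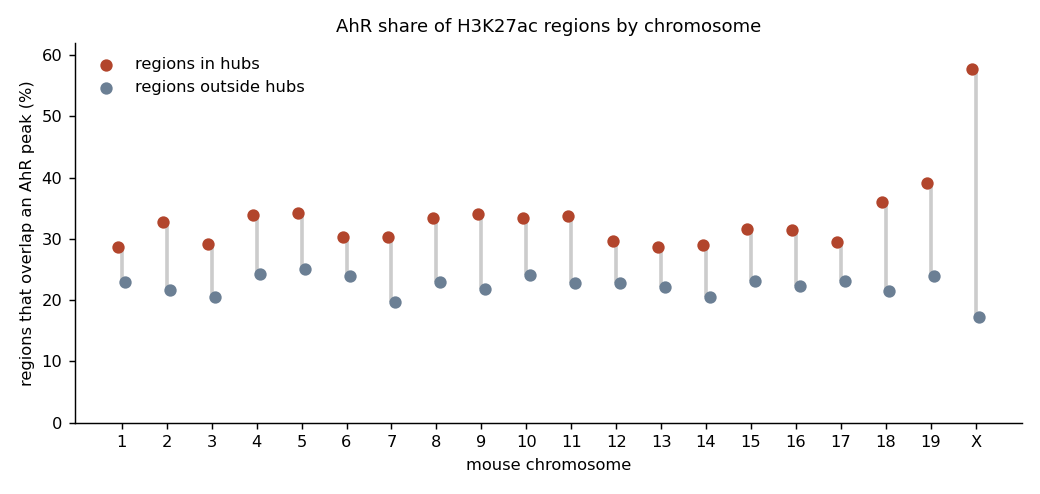
Share of H3K27ac regions that overlap a liver AhR peak (percent) on each mouse chromosome, for regions in hubs and regions outside hubs, joined by a grey line. The hub value is the higher on 20 of 20 chromosomes, and the wide gap on X rests on 26 hub regions.

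Region width and the merge number did not differ much between hub regions and others. Hub regions had a median width of 279 bp and regions outside hubs 275 bp. Merged regions made up 75.7% of hub regions and 77.8% of regions outside, lower in hubs on 19 of 20 chromosomes. In each of 4 width classes, cut at the quartiles, the AhR share was higher in hubs. It was 26.0% in hubs and 18.5% outside in the narrowest class (up to 248 bp), and 35.1% in hubs and 26.5% outside in the widest (over 320 bp). Weighted over 8 classes of width and merge number, the difference in AhR share was 9.71 points. The size of the difference varied with the merge number. Among regions with a number of exactly 2, 36.9% in hubs and 24.9% outside overlapped AhR, a difference of 12.02 points. Among regions that were not merged, 16.9% in hubs and 13.5% outside did, a difference of 3.37 points. The difference was thus larger among merged regions, and the gap between these differences was not tested.

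Hub regions were also compared with regions in chains of 2 to 9 by the distance to the closest neighbour. Single regions have no neighbour within 12500 bp and are not in this comparison. Among regions whose nearest neighbour was at most 250 bp away, 33.2% in hubs and 24.7% in chains of 2 to 9 overlapped AhR. With the neighbour farther off but within 1000 bp the shares were 32.9% in hubs and 25.5% in those chains, and from there to 5000 bp they were 31.7% in hubs and 23.9% in those chains. With the neighbour beyond 5000 bp and within 12500 bp they were 24.4% in hubs and 21.0% in those chains, the smallest of these 4 differences at 3.34 points. Membership and local spacing are both set by the same gaps, so these classes separate them only in part.

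Within a hub AhR lay mainly on the regions. Of the 8301 AhR peaks in hubs, 71.5% overlapped an H3K27ac region, against 33.99% of the 33370 AhR peaks outside hubs and 41.5% of all. Because an AhR peak between hub regions is by definition close to some region, this contrast is a description. The AhR peaks outside hubs include 22027 off any region, also those far from every chain. By centre, 5583 AhR peaks lay in hub regions and 2695 in hub gaps. In chains of 2 to 9 regions 8933 lay in regions and 2923 in gaps, so the share on regions was lower in hubs than in those chains. By centre, hub regions carried 9.66 AhR peaks per 10 kb of region sequence and the gaps between them 0.629 per 10 kb, a 15.3-fold ratio. In chains of 2 to 9 regions the values were 7.58 per 10 kb of region and 0.342 per 10 kb of gap, a 22.2-fold ratio. Hub sequence was thus richer in AhR both on and between regions, by 1.27-fold on regions and 1.84-fold in gaps. Gaps were shorter in hubs, with a median of 954 bp against 1460 bp in those chains. A centre in a gap can also belong to an AhR peak that overlaps a region. The 1.84-fold was not corrected for either. Over the whole span hubs had 1.71 AhR peaks per 10 kb. Around them there were 0.527 per 10 kb within 25 kb of a hub edge, 0.434 from 25 to 50 kb and 0.338 from 50 to 100 kb. The rule ends a hub where no region follows within 12500 bp, so the first 12500 bp beyond a hub edge lack regions by construction. The rest of the near flank can hold regions. The 0.527 of the near flank is over all its sequence, regions included, while the 0.629 in hub gaps leaves regions out. These values are therefore not set against each other. The 2363 AhR peaks between hub regions lay a median of 1568 bp from the nearest region edge.

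Around H3K27ac regions, AhR centres were most frequent at the region centre, in and out of hubs. Many AhR peaks lay off any region, so this describes only part of them. In the 50 bp bin just downstream in coordinates of the region centre there were 95.7 AhR centres per 1000 hub regions and 73.4 per 1000 regions outside. The count dipped around 225 bp from the centre, to 5.55 upstream and 5.66 downstream per 1000 hub regions, against 3.31 on either side outside hubs. It stood at 15.3 per 1000 hub regions and 6.96 per 1000 regions outside at 475 bp downstream. AhR centres on neighbouring regions are counted here too. Hub regions have near neighbours by the rule and single regions do not, so values away from the centre describe the choice in part.

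**Figure D5:**
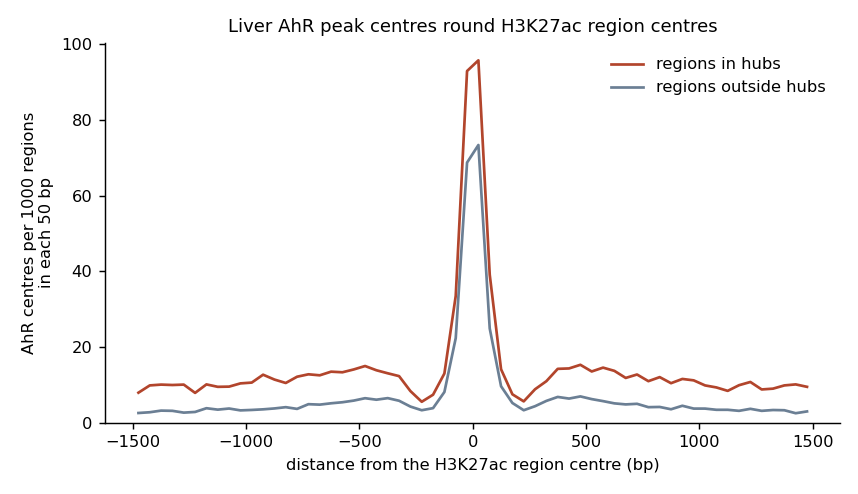
AhR peak centres per 1000 H3K27ac regions in 50 bp bins, by distance in bp from the region centre, for regions in hubs and regions outside hubs. Both curves have a sharp peak at the region centre, higher in hubs (95.7) than outside (73.4), and a dip near 225 bp on each side.

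Position within a hub also went with AhR. The first and last regions of hubs overlapped AhR in 26.3% of cases (interval 24.5 to 28.2), and the regions between them in 33.0% (32.3 to 33.7). A hub region that followed a region with AhR had AhR itself in 39.0% of cases, against 29.6% after a region without. In chains of 2 to 9 regions these shares were 34.3% and 21.9%. An AhR peak can overlap 2 neighbouring regions, which adds to the share after a region with AhR. Several AhR peaks on the same region were rare, at 80 hub regions or 1.33% of those with AhR, against 1.02% outside hubs. In 200 of 1131 hubs at least 50% of the regions overlapped AhR. No such count was made for other chains, so it marks nothing as particular to hubs.

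AhR peaks in hubs were merged more often than those elsewhere. Of AhR peaks in hubs 50.4% were merged (interval 49.3 to 51.5), against 42.7% outside (42.2 to 43.2) and 44.2% in the whole list. For peaks on regions the difference was smaller, with 54.6% merged in hubs (53.3 to 55.8) and 49.2% outside (48.3 to 50.1). Peaks off regions were merged in 39.9% of cases in hubs (38.0 to 41.9) and 39.4% outside (38.7 to 40.0). Peaks on regions, merged more often in and out of hubs, made up 71.5% of AhR peaks in hubs and 33.99% outside. The shares over all peaks therefore depend on this mix as well.

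The same chaining applied to the H3K27ac list of untreated HepG2, a human liver cancer cell line, gave hubs of similar form but the opposite relation to AhR. The HepG2 H3K27ac libraries were 5 B2_minus and 5 Cont, and the AhR libraries 2 B2_minus and 2 Cont, all at day 12. The mouse list had 1131 hubs with 27% of its regions, and HepG2 had 1787 hubs with 28.0%. Median length was 38.6 kb in mouse hubs and 39.1 kb in HepG2 hubs, and the median AhR count was 6 in mouse and 5 in HepG2. An AhR peak of the same cell line overlapped 32.9% of HepG2 hub regions (interval 32.4 to 33.5), 39.7% of HepG2 regions outside hubs (39.4 to 40.1) and 37.8% of all. Hub regions were thus above the rest by 9.67 points in mouse, while the same difference was -6.82 points in HepG2. The hub share was the lower on 22 of 23 HepG2 chromosomes, and chromosome 13 was the exception at 0.25 points. Taken by chromosome the HepG2 difference was -4.98 ± 2.69 points (mean ± SD over 23 chromosomes), smaller in size than the pooled value. HepG2 hubs were uneven over chromosomes, with 49.9% of regions in hubs on chromosome 20 and 9.30% on X. Outside hubs the AhR share was 26.0% on chromosome 20 and 47.5% on X. The differences within these chromosomes were -1.54 and -10.5 points. The pooled HepG2 value therefore depends on the mix of chromosomes as well. In HepG2 hubs of 30 or more regions the share fell to 26.9%, against 39.9% in single regions. The direction in HepG2 was the same for merged regions (39.8% in hubs, 45.6% outside) and for the others (8.65% in hubs, 18.6% outside). The lists were called separately, liver AhR and hepatocyte H3K27ac came from different material while both HepG2 lists came from 1 cell line, and the difference between the species was not tested.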

How the data were processed

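The authors deposited 6 peak lists of 5 columns, of which 4 were used: H3K27ac in AhR-floxed hepatocytes, AhR in mouse liver, and H3K27ac (untreated) and AhR in HepG2. The deposited values are start and end positions, with no count, score or value per library. Bowtie2 and HOMER, without versions, and the builds hg38 and mm10 are named per the submitters' processing notes. Caller settings and the libraries behind each list are not stated, and depth is unknown. From the hepatocyte list 185 of 69615 regions, and from the AhR list 7 of 41678 peaks, lay on other sequences and were left out.

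Samples were grouped by title, but the planned tests between conditions, gene assignment and motif counts were not made, since the lists hold no library values and no mouse genes or genome were used here. Named hubs were the 15 with the most regions, the 15 with the most AhR peaks and the 5 largest with the fewest AhR peaks. The hub chr12:25132095-25181651 and those near chromosome starts were picked later, with their values in view. The hubs and all measures were chosen with earlier results of these data known. Overlap meant at least 1 bp, shares have Wilson intervals at 95%, and their difference a Newcombe interval. The chaining recovered 200 of 200 simulated chains, and 2956 of 2956 simulated regions received the planted overlap call. Python 3.11.15, NumPy 2.4.6, pandas 2.3.3 and Matplotlib 3.10.9 were used.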

Additional observations from a re-analysis of the deposited data

How the results depend on the processing

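The direction of the difference in AhR share, hub regions above regions outside hubs, was the same in the 12 alternatives run, with values from 6.59 to 14.9 points. It was 8.68 points when 50% of the shorter peak had to overlap, 13.6 with centres within 500 bp, 6.59 with merged AhR peaks only, 12 with merged H3K27ac regions only, 14.9 against single regions and 8.02 for regions with a neighbour within 1000 bp. The other 6 alternatives stayed inside the interval of the main value. The share itself was 30.1% in hub regions and 21.5% outside with the 50% overlap, 40.0% and 26.4% with centres within 500 bp, 17.8% and 11.2% with merged AhR peaks, and 37.1% and 25.1% with merged regions. It was 33.9% in hub regions and 24.3% outside at a gap of 5000 bp, 29.9% and 20.6% at 25000 bp, and 33.1% and 23.6% with 15 or more regions. With 8 or more regions the outside share was 21.8%. The 50% overlap and the use of merged AhR peaks can only lower a share; otherwise the cause was not tested.

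The number of hubs followed the rule, with 458 at a gap of 5000 bp, 1752 at 25000 bp, 1739 with 8 or more regions, 510 with 15 or more and 696 when merged regions alone were chained. The share of hubs with AhR was 93.8% with 8 or more regions and 99.0% with 15 or more, and 88.1% with merged AhR peaks. Counting only AhR peaks on regions, it was 95.05% with the 50% overlap and 94.8% with merged regions. Leaving out the 10 hubs that start before 3500000 bp of a chromosome left 1121 hubs and a difference of 9.76 points. This and the restriction to near neighbours were chosen after seeing the data. Alternatives that need mouse genes or values per library were not run. No paired analysis was possible because the lists hold no values per library.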

Other observations

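Applying the chaining rule to the liver AhR peaks themselves gave 486 AhR clusters of 10 or more peaks, the largest with 90. Of these clusters 315 (64.8%) overlapped an H3K27ac hub, and 313 of the 1131 hubs (27.7%) overlapped an AhR cluster. The same shares were not computed for other spans of this length, so these counts are a description and mark nothing as particular to hubs.

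Some hubs lie close to where the listed part of a chromosome begins. Of the 10 hubs that start before 3500000 bp, those at chr9:2999966-3032484 and chr15:3213760-3259346 hold the first H3K27ac region listed on their chromosome. The chromosome 9 hub had 21 regions and 0 AhR peaks, and the chromosome 15 hub had 22 regions and 11 AhR peaks. Of these 10 hubs, 3 had no AhR peak. A pair of hubs on chromosome 11, at chr11:3127499-3164061 and chr11:3180621-3209031, had 13 and 17 regions with 1 and 2 AhR peaks. Among the 185 regions left out for lying on other sequences, 101 were on a single unplaced sequence.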
